A study of Mus musculus with 7 samples.

Results

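The core pluripotency genes are 10 genes that keep embryonic stem cells undifferentiated or mark that state, and they were followed here in mouse stem cells in which the neuronal factor NeuroD1 was switched on. They are the transcription factor genes Pou5f1, Sox2, Sall4, Utf1 and Zfp281, the RNA regulator genes Lin28a, Trim71 and L1td1, and the signalling genes Tdgf1 and Gdf3. The members were taken by name, and all 10 were found among the 21937 genes of the authors' deposited table. The members and the related lists below were chosen with earlier results of these data known, so their counts are description only. The study induced NeuroD1, a basic helix-loop-helix factor of developing neurons, to ask whether it starts a neuronal expression program. Induced cells were A2lox embryonic stem cells of 129/Ola background exposed to 500 ng/ml doxycycline during 48 h, and 2 RNA libraries were made from them. Uninduced cells were the same transgenic line without the drug, also with 2 RNA libraries. Both groups carry the doxycycline-inducible transgene, grew with fetal calf serum and LIF, and had been taken off their fibroblast feeder layer before the experiment. No group had doxycycline without the transgene, so the drug and NeuroD1 cannot be told apart. The 2 NeuroD1 chromatin immunoprecipitation samples, taken after 24 h of induction, and the 1 sample of input DNA were not used here.

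Pluripotency rests on a small circuit. Oct4, the product of Pou5f1, and Sox2 bind DNA together at many stem cell enhancers and sustain each other's genes, while Sall4 and Zfp281 work with them and with repressor complexes. Cripto, the product of Tdgf1, is a cell-surface co-receptor for Nodal, and Gdf3 is a ligand of the same branch of the TGF-beta family. Lin28a blocks maturation of let-7, a microRNA family that silences Lin28 and Trim71 messages in differentiated cells. L1td1 is an RNA-binding protein derived from a LINE-1 element. Sox2 is used again in neural progenitors, and Lin28 proteins are also made in the early neural tube.

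Values are group means of normalized read counts as the authors' deposited table lists them, without a spread per library. The adjusted p of a gene comes from DESeq as run by the authors, corrected by the Benjamini-Hochberg method over 18283 genes, and 0.05 was the threshold. An approximate 95% interval was worked back from each unadjusted p by treating the log2 change over its standard error as normal. The labels do not state whether replicate libraries stem from separate cultures, so p-values may measure technical spread only. The RNA came from bulk cultures, in which fewer stem cells and less RNA per cell cannot be told apart. Neurod1 itself averaged 4371 normalized reads in induced cells, against 438 in uninduced cells, in the authors' deposited table (9.98-fold, adjusted p = 4.5e-274). Of 8 stem cell markers, 3 of them core members, 7 were lower after induction and Sox2 did not pass. Nanog, for example, averaged 179 normalized reads in induced cells, against 318 in uninduced cells, in the authors' deposited table. The 6 neuron markers were all higher, with a summed level of 19656 normalized reads in induced cells and 5345 in uninduced cells. The 12 fibroblast markers summed to 3999 in induced cells and 3168 in uninduced cells, with 3 called higher and 2 lower. Beside these marker counts stand 19.1% called higher and 16.4% called lower over all tested genes, and the fibroblast counts are near these shares. No fibroblast marker was listed at 0 in either group. In the authors' deposited table Pdgfrb averaged 287 in induced cells and 115 in uninduced cells (adjusted p = 7.4e-12), and Thy1 averaged 56.9 in induced cells and 151 in uninduced cells (adjusted p = 7.2e-08). The part of feeder cells in the changes below was not tested.

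Of the 10 core pluripotency genes, 6 were lower after induction, 1 was higher and 3 did not pass. Among all tested genes 16.4% were called lower and 19.1% higher. The members have high read counts, where calls are more frequent. Among 2086 genes whose mean over both groups fell between the lowest and the highest member, 28.6% were called lower and 25.0% higher. On the log2 scale with a pseudocount of 1, the members had a median change of -0.42, beside -0.0094 over all tested genes and -0.010 over the genes of that level. The genes that fell were Tdgf1, L1td1, Utf1, Pou5f1, Gdf3 and Zfp281. The gene that rose was Lin28a, and Sox2, Sall4 and Trim71 did not pass. All 10 remained expressed, with the lowest induced mean at 1452 normalized reads for Utf1.

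**Figure D1:**
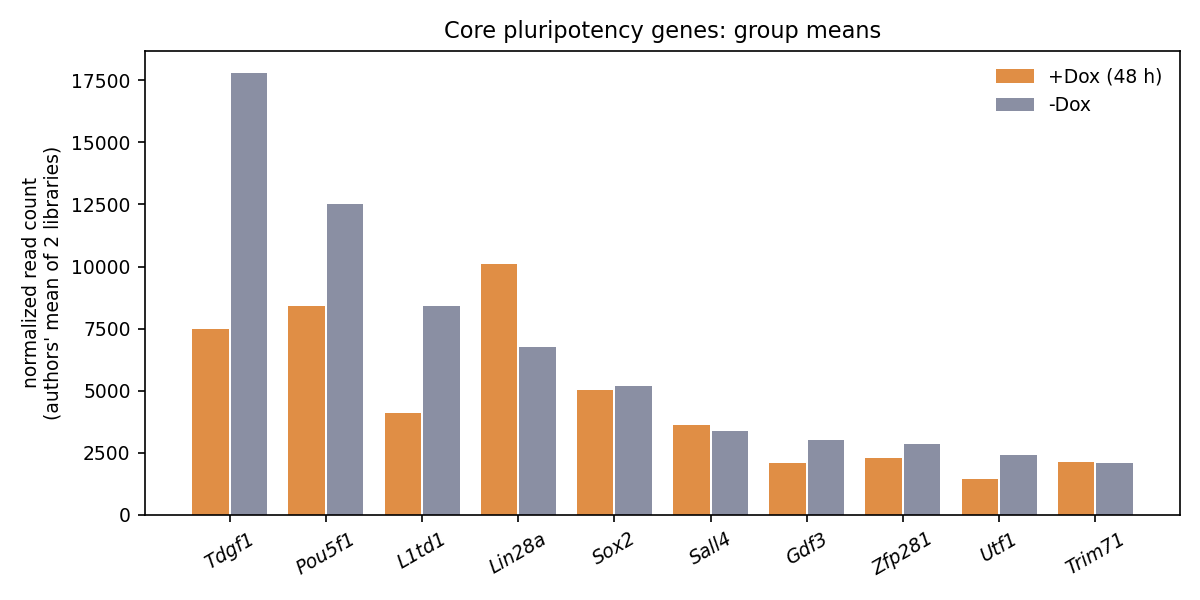
Group means of normalized read counts of the 10 core pluripotency genes in induced (+Dox, left bar) and uninduced (-Dox, right bar) cells, ordered by the uninduced mean, without error bars because the table gives no spread. The induced bar of Tdgf1 stands at 7492 beside an uninduced bar at 17806, Lin28a has the taller induced bar, and the bars of Sox2, Sall4 and Trim71 are of nearly equal height in both groups.

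Promoter windows are shown first for the genes at the ends and in the middle of this range. Tdgf1 had the largest fall, Lin28a the only rise, and Pou5f1 and Sox2, whose proteins act as a pair, did not have the same call. Each window runs from 250 bases before the RefSeq transcription start to 50 bases after it, 5′ to 3′ on the gene's strand, in GRCm38.p6. Capitals mark matches on either strand to the E-box CANNTG, the core that NeuroD1 and other helix-loop-helix factors bind, to the octamer ATTTGCAT of POU factors, or to the Sox motifs CATTGT and ACAAAG. For Pou5f1 the upstream of 2 listed starts is shown.
Tdgf1, chr9:110946109-110946408, minus strand: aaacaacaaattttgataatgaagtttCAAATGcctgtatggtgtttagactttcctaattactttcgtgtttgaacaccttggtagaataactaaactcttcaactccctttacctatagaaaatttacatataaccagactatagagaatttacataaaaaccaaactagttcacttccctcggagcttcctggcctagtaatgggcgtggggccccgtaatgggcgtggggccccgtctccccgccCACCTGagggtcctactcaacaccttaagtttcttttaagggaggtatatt
Lin28a, chr4:134018767-134019066, minus strand: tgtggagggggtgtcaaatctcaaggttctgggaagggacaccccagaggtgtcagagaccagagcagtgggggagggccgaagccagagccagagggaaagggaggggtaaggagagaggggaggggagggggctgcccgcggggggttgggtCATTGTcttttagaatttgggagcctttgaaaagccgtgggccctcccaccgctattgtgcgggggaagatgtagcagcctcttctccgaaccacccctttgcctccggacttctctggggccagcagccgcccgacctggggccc
Pou5f1, chr17:35505782-35506081, plus strand: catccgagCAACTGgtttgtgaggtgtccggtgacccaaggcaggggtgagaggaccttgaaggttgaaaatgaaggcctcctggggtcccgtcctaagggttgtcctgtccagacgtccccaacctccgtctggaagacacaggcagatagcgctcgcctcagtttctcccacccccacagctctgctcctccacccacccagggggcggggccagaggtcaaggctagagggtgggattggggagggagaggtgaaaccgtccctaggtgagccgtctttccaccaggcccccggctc
Sox2, chr3:34649745-34650044, plus strand: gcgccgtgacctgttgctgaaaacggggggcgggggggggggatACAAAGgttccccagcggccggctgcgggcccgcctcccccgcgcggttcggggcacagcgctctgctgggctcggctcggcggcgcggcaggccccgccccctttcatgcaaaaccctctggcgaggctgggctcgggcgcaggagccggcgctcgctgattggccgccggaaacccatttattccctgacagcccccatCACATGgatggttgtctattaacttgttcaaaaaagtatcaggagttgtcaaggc

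Windows were found for 8 of the 10 members, and 3 of these genes, Tdgf1, Pou5f1 and Sox2, hold a CANNTG match. Such a match is common, since 72.3% of all 32851 windows of the table hold one. Of its special cases, CAGATG is in 17.2% of all windows and in those of 0 members. The form CAGCTG is in 16.3% of all windows and, among members, in the downstream Pou5f1 window. The form CAGGTG is in 20.2% of all windows and, among members, in that of Tdgf1 on the reverse strand. The octamer ATTTGCAT is in 1.74% of all windows and in those of 0 members. CATTGT, present in 12.6% of all windows, is in those of Lin28a and of the downstream Pou5f1 start, and ACAAAG, present in 18.7%, is in that of Sox2. The Tdgf1 window has the lowest GC share of the members at 41.7%, against a median of 52.7% over all windows, and that of Zfp281 has the highest at 70.7%. A match describes letters only, and whether NeuroD1, Oct4 or Sox2 is bound at any of these windows was not analysed here.

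Of the transcription factors, Pou5f1 fell and Sox2 did not pass. Pou5f1 averaged 8404 normalized reads in induced cells, against 12528 in uninduced cells, in the authors' deposited table. That is 0.671 of the level in uninduced cells (adjusted p = 0.00051), a log2 change of -0.58 with an approximate interval of -0.87 to -0.29. This interval was the widest of the 10, with an approximate standard error of 0.15 against 0.071 to 0.11 for the others. Sox2 averaged 5016 in induced cells and 5178 in uninduced cells in the authors' deposited table, 0.969 of the level in uninduced cells (adjusted p = 0.78). Its interval on the ratio scale ran from 0.869 to 1.08, so a change of the size seen for Pou5f1 lies outside it. The difference between the changes of Pou5f1 and Sox2 was not tested. Per kilobase of merged exon, Pou5f1 stood 2.53 times as high as Sox2 in induced cells and 3.65 times as high in uninduced cells.

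Sall4, a zinc finger factor of stem cells and germ cells, averaged 3611 normalized reads in induced cells and 3369.6 in uninduced cells in the authors' deposited table (adjusted p = 0.35). Its ratio of 1.07 had an approximate interval of 0.967 to 1.19. Zfp281, a zinc finger factor that in mouse restrains the naive state, fell to 0.802 of its level in uninduced cells in the authors' deposited table (adjusted p = 0.00050), with 2276 normalized reads in induced cells and 2837 in uninduced cells. This was the smallest change among the members that passed. Utf1, a chromatin-associated factor and a known target of Oct4 and Sox2, averaged 1452 in induced cells and 2388 in uninduced cells in the authors' deposited table. It fell to 0.608 of its level in uninduced cells (adjusted p = 9.4e-16), with an approximate interval of 0.541 to 0.683 on the ratio scale. Of the 5 transcription factor genes, 3 fell and 0 rose, beside 28.6% called lower and 25.0% called higher among genes of similar level.

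Both signalling members fell. Tdgf1 averaged 7492 normalized reads in induced cells, against 17806 in uninduced cells, in the authors' deposited table. This is 0.421 of the level in uninduced cells (adjusted p = 1.8e-58), with an approximate interval of 0.379 to 0.467. Tdgf1 was the member with the strongest fall, and 0.911% of the 2086 genes of similar level had a lower ratio. Gdf3 averaged 2098 in induced cells and 2999 in uninduced cells in the authors' deposited table, 0.700 of the level in uninduced cells (adjusted p = 2.6e-09, interval 0.626 to 0.781). Its ratio was close to that of Pou5f1.

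The RNA regulators did not move in 1 direction. Lin28a averaged 10104 normalized reads in induced cells, against 6761 in uninduced cells, in the authors' deposited table. It rose 1.49-fold (adjusted p = 5.6e-15), with an approximate interval of 1.36 to 1.65, and 93.3% of genes of similar level had a lower ratio. L1td1 fell to 0.486 of its level in uninduced cells in the authors' deposited table (adjusted p = 1.9e-20), with 4089 in induced cells and 8418 in uninduced cells. Trim71, a large RNA-binding protein of the TRIM family, averaged 2118 in induced cells and 2096 in uninduced cells in the authors' deposited table (adjusted p = 1). Its ratio of 1.01 had an approximate interval of 0.873 to 1.17. L1td1 and Tdgf1 were the members that fell below 0.5 of their level in uninduced cells, a size of fall called for 4.20% of all tested genes and 1.87% of genes of similar level. With a minimum change of 1.5-fold, Tdgf1, L1td1 and Utf1 counted as lower and 0 members as higher, beside 8.59% lower and 11.4% higher among all tested genes.

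**Figure D2:**
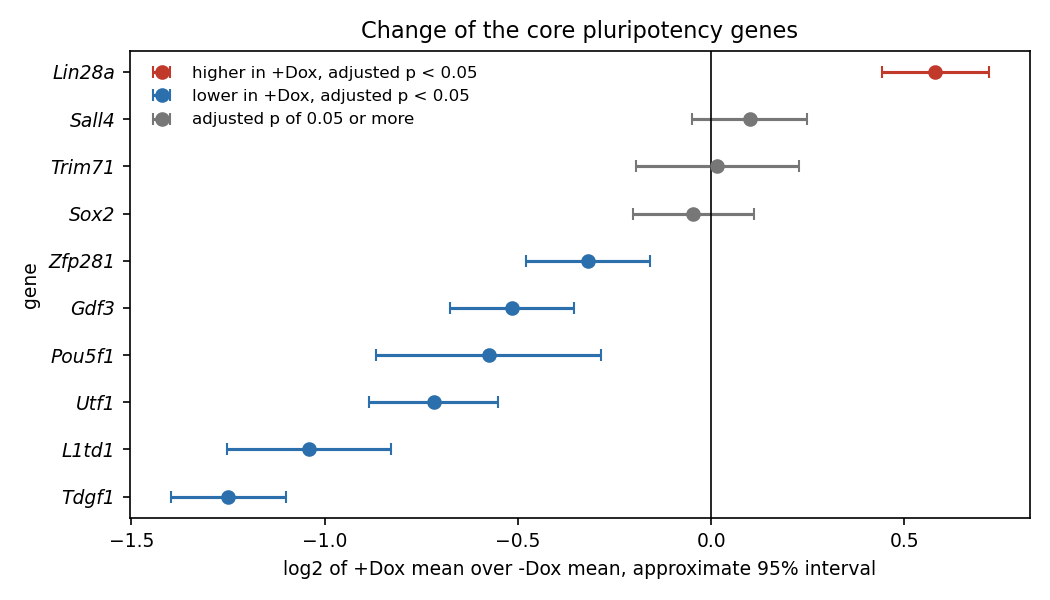
Log2 ratio of induced to uninduced mean for each core pluripotency gene, with the approximate 95% interval worked back from the authors' p, coloured by whether the adjusted p passed 0.05. The intervals of Sox2, Sall4 and Trim71 cross 0, that of Lin28a lies above it at 0.44 to 0.72, and those of the remaining 6 lie below it.

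**Figure D3:**
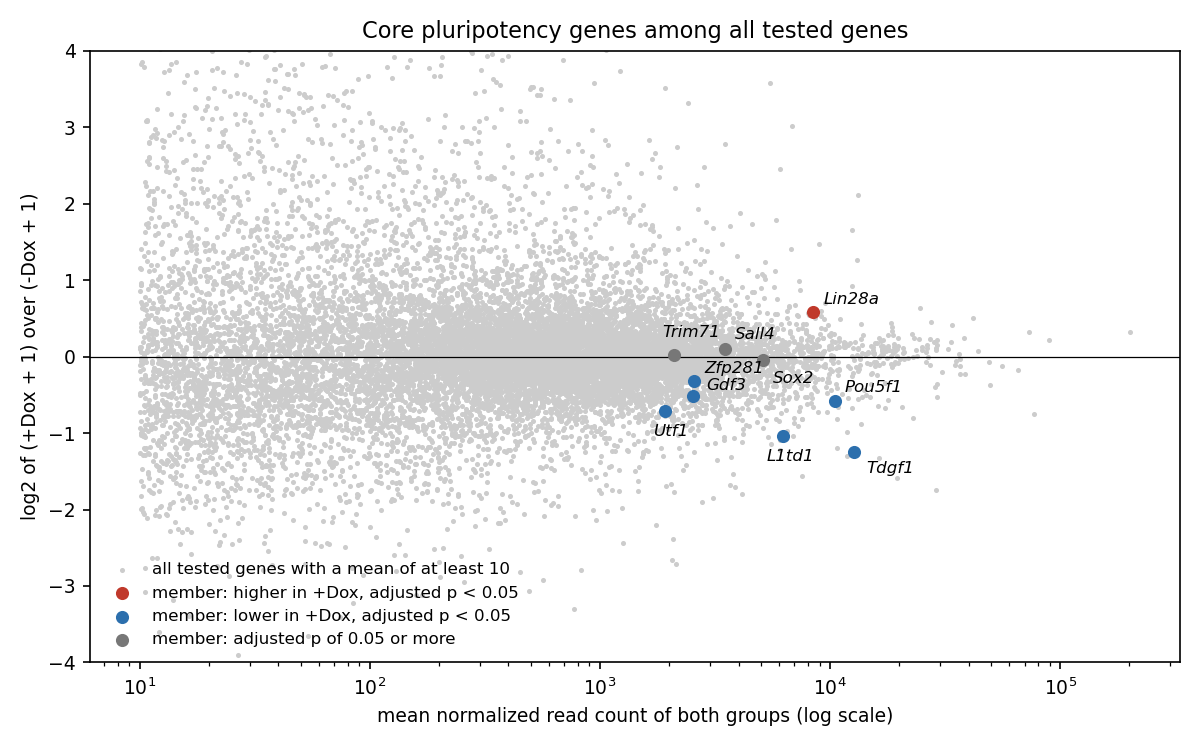
Log2 change with a pseudocount of 1 (vertical axis) against the mean normalized read count of both groups (horizontal axis, log scale) for tested genes with a mean of at least 10, with 107 of 14388 genes outside the drawn range of -4 to 4. The members sit on the right of the cloud, Lin28a towards its upper edge and L1td1 and Tdgf1 near its lower edge.

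The members differ by exon length from 1.23 kb for Utf1 to 9.33 kb for Trim71, so levels were compared per kilobase of merged GENCODE exons, computed from the authors' deposited table. In induced cells Pou5f1 was highest at 6170.5 normalized reads per kb, followed by Tdgf1 at 3878 and Lin28a at 2883, and Trim71 was lowest at 227. In uninduced cells Tdgf1 and Pou5f1 led with 9217 and 9198 normalized reads per kb, and Trim71 was again lowest at 225. Lin28a held place 3 of 10 in induced cells and place 6 in uninduced cells, where it stood at 1929 per kb. L1td1 held place 5 in induced cells at 1302 per kb and place 3 in uninduced cells at 2681. Utf1 held place 6 in induced cells and place 5 in uninduced cells. Sox2 held place 4 in both groups, and Gdf3, Sall4, Zfp281 and Trim71 held places 7 to 10 in both. Without a spread per library, neighbours in these orders cannot be called different.

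The strand setting of the counting is not given in the sources used here, and the effect of overlapping transcripts or copies on these values was not tested. In the GENCODE annotation an antisense transcript shares 21.4% of the merged exon bases of Pou5f1, and opposite-strand transcripts share 5.72% of those of Sall4, 2.94% of those of Lin28a and 1.45% of those of Trim71. None of these 4 overlapping genes was matched by name to a row of the table used here. Sox2 lies within the locus of the noncoding RNA Sox2ot, named after its values were seen, which averaged 82.7 normalized reads in induced cells and 107 in uninduced cells in the authors' deposited table (adjusted p = 0.27). Pou5f1 and Tdgf1 also have pseudogene copies, whose share of the reads was not separated here.

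Paralogs of the members were set beside them. Among the other Sall genes, Sall2 rose 3.81-fold (adjusted p = 5.1e-113) and Sall3 3.27-fold (adjusted p = 3.4e-14) in the authors' deposited table, whereas Sall1 did not pass, with 5394 in induced cells and 5847 in uninduced cells (adjusted p = 0.24). Of the SoxB genes, which share a DNA-binding domain type with Sox2, Sox3 averaged 346 in induced cells and 67.3 in uninduced cells in the authors' deposited table (5.15-fold, adjusted p = 1.0e-32). Sox1, a neural plate marker, rose 2.04-fold (adjusted p = 4.7e-18) in the authors' deposited table. Sox21 did not pass in the authors' deposited table, with 385 in induced cells and 312 in uninduced cells (adjusted p = 0.15).

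Among POU genes, the class III members Pou3f1, Pou3f2 and Pou3f3 rose as Pou5f1 fell. Pou3f1, also called Oct6, averaged 1083 in induced cells and 478 in uninduced cells in the authors' deposited table (adjusted p = 1.8e-25). Pou3f2, or Brn2, averaged 179 in induced cells and 2.54 in uninduced cells in the authors' deposited table (adjusted p = 5.6e-46). Pou3f3 averaged 49.2 in induced cells and 3.61 in uninduced cells in the authors' deposited table (adjusted p = 1.5e-09). Pou3f4, also of class III and named after its values were seen, did not pass. It averaged 10.9 in induced cells and 4.54 in uninduced cells in the authors' deposited table (adjusted p = 0.33). The widely expressed Pou2f1 did not pass in the authors' deposited table, with 790 in induced cells and 699 in uninduced cells (adjusted p = 0.21), nor did Pou2f2, with 56.3 in induced cells and 51.9 in uninduced cells (adjusted p = 0.94). Zfp148, the paralog of Zfp281, averaged 1182 in induced cells and 1134 in uninduced cells in the authors' deposited table (adjusted p = 0.74). Of the TRIM-NHL relatives of Trim71, Trim2 fell to 0.728 of its level in uninduced cells (adjusted p = 0.0057) in the authors' deposited table. Trim3, with 593 in induced cells and 537 in uninduced cells, did not pass (adjusted p = 0.48) in the authors' deposited table. Trim32, with 466 in induced cells and 381 in uninduced cells, did not pass there either (adjusted p = 0.070).

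Lin28b, the paralog of Lin28a, rose 1.42-fold in the authors' deposited table (adjusted p = 6.4e-07), with 3424 in induced cells and 2407 in uninduced cells. Lin28 proteins recognise let-7 precursors, and the mature let-7 microRNAs act through the seed at bases 2 to 8, shown in capitals for 3 members of the family from RefSeq.
mmu-let-7a-5p: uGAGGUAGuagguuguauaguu
mmu-let-7g-5p: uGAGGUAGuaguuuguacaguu
mmu-miR-98-5p: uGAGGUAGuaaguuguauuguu
All 9 family members in that table share this seed. Mature microRNAs were not measured in these polyA libraries.

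The lists that follow were chosen with earlier results of these data known, and no set test was run. Their counts stand beside 19.1% higher and 16.4% lower, and a median log2 change of -0.0094, over all tested genes. At the level of the members, where calls are more frequent, the shares were 25.0% higher and 28.6% lower. Of 11 genes for let-7 processing and decay, Lin28a among them, 7 rose and 0 fell, and the median log2 change was 0.24. The list joins genes of let-7 processing with genes that block it, such as Lin28a, so the count gives no direction for let-7. Zcchc11, a uridyltransferase recruited by Lin28a, rose 1.36-fold (adjusted p = 4.4e-07) in the authors' deposited table. Dicer1 rose 1.18-fold (adjusted p = 0.0062) and Eif2c2, which encodes Argonaute 2, 1.18-fold (adjusted p = 0.0058) there. Of 19 textbook let-7 targets, 10 rose and 2 fell, the median log2 change was 0.24, and the list holds Lin28a, Lin28b and Trim71. Igf2bp3 averaged 5061 in induced cells and 2851 in uninduced cells (adjusted p = 1.4e-25), and Igf2bp1 rose 1.41-fold (adjusted p = 2.9e-11), in the authors' deposited table. Both encode RNA-binding proteins of growth-related messages. Arid3b rose 1.97-fold (adjusted p = 2.0e-28) and the cyclin gene Ccnd2 1.98-fold (adjusted p = 8.0e-10) in the authors' deposited table. Of 5 messages that Trim71 represses in stem cells, 1 rose and 1 fell, near the 19.1% higher and 16.4% lower over all tested genes. The cell cycle inhibitor gene Cdkn1a rose 1.21-fold (adjusted p = 0.015) and the retinoblastoma relative Rbl2 fell to 0.485 of its level in uninduced cells (adjusted p = 1.7e-11) in the authors' deposited table.

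The pathway of Tdgf1 and Gdf3 had 18 tested genes, of which 5 rose and 9 fell, and the median log2 change was -0.36. Without the members themselves the counts were 5 and 7 of 16. Nodal, the ligand that Cripto presents to its receptors, averaged 443 in induced cells and 1278 in uninduced cells in the authors' deposited table (0.347 of the level in uninduced cells, adjusted p = 2.5e-44). The feedback inhibitor gene Lefty1 fell to 0.286 (adjusted p = 1.3e-22) and the convertase gene Pcsk6, whose product cleaves Nodal, to 0.459 of its level in uninduced cells (adjusted p = 1.5e-20) in the authors' deposited table. The signal transducer gene Smad3 rose 2.20-fold (adjusted p = 1.9e-26) in the authors' deposited table. Nodal, its co-receptor gene Tdgf1 and its inhibitor gene Lefty1 thus fell, and the intracellular transducer gene Smad3 rose.

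Genes controlled with or by Oct4 and Sox2 were counted last. Of 10 textbook targets of the combined Oct4 and Sox2 element, 9 fell and 0 rose, and Sox2 was the one that did not pass. Leaving out the 3 members among them, 7 of 7 fell, and their median log2 change was -1.04. The growth factor gene Fgf4 fell to 0.310 (adjusted p = 4.1e-79) and Spp1, which encodes osteopontin, to 0.312 of its level in uninduced cells (adjusted p = 2.0e-88) in the authors' deposited table. Of 12 naive pluripotency factors 10 fell and 1 rose, the median log2 change was -0.99, and Esrrb fell to 0.457 of its level in uninduced cells (adjusted p = 3.1e-34) in the authors' deposited table. Also named by the rule were Tfcp2l1, listed as Tcfcp2l1, Nr5a2 and Klf2, at 0.357, 0.376 and 0.522 of their levels in uninduced cells in the authors' deposited table.

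Of 15 genes listed as other regulators used with Oct4 and Sox2, 4 rose and 7 fell, and the median log2 change was -0.0015. The cell cycle factor gene Mybl2 fell to 0.510 (adjusted p = 3.1e-38) and Rif1 to 0.689 of its level in uninduced cells (adjusted p = 3.1e-13) in the authors' deposited table. Tcf3, which as listed beside Tcf7l1 is the E-protein gene, rose 1.32-fold there (adjusted p = 6.5e-06). This E-protein gene is counted among the 15 and among the 4 that rose, and the counts and median without it were not computed. Tcf7l1, the Wnt pathway repressor gene of stem cells formerly called Tcf3, fell in the authors' deposited table to 0.807 of its level in uninduced cells (adjusted p = 0.0058) and was named after its values were seen. Of 14 genes of the NuRD complex and other partners of Sall4 or Zfp281, 3 rose and 4 fell, and the median log2 change was 0.027. These counts are near the shares over genes of similar level, 25.0% higher and 28.6% lower. Tet1 and Tet2, DNA demethylation enzymes, fell to 0.504 and 0.537 of their levels in uninduced cells (adjusted p = 8.4e-10 and 3.2e-09) in the authors' deposited table. Hdac2, a NuRD deacetylase gene, rose 1.45-fold (adjusted p = 1.2e-06) and Mta3 fell to 0.753 (adjusted p = 8.0e-05) there.

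**Figure D4:**
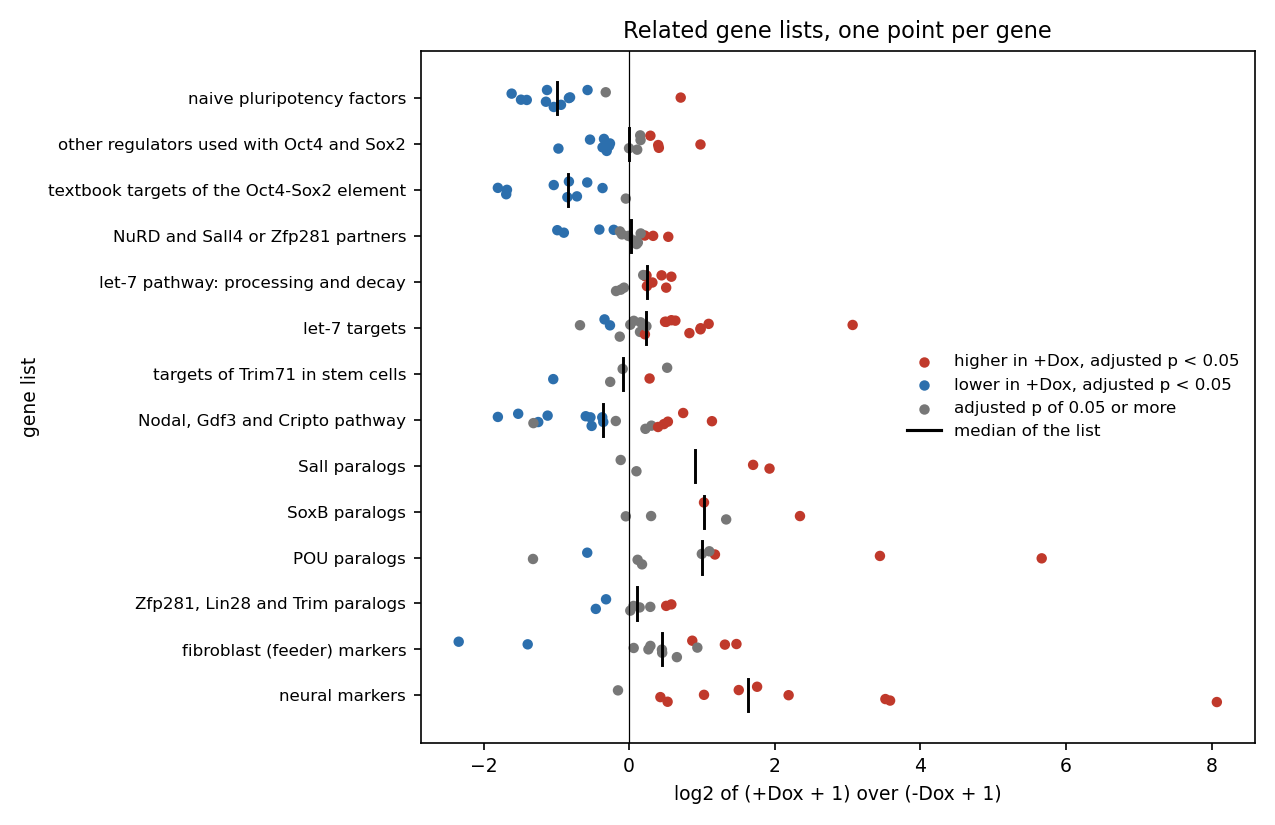
Log2 change with a pseudocount of 1 for every tested gene of 14 related lists, 1 point per gene, coloured by the adjusted p, with the median of each list as a black bar. The targets of the Oct4 and Sox2 element lie to the left of 0, as do the naive factors apart from Stat3, which rose, and the let-7 lists lean to the right with medians of 0.24, and the partner lists straddle 0. Lists share genes.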

How the data were processed

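RNA libraries of induced and of uninduced cells, 2 each, had been processed with TopHat2 2.0.8, HTSeq 0.5.4p1, SAMtools 0.1.19, DESeq and FastQC 2.6.14 for build mm9, per the submitters' processing notes, which give no role or order. The authors' deposited table holds group means of normalized read counts, read here as a signal from its header, with the fold change as a ratio, its log2 value, and the p-value and adjusted p-value. Ratios equalled induced over uninduced means, and adjusted p-values a Benjamini-Hochberg adjustment, in 100% of cases at a relative tolerance of 1e-06.

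A second deposited table has 4 library columns whose names match no sample label. None was used, so library depth and spread are not given, and the planned limma fit was not run.

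Changes of lists are log2 values with a pseudocount of 1. Intervals were computed as the log2 change plus or minus normal quantiles times the standard error implied by the authors' p. Exon lengths and overlaps came from GENCODE M21 and promoter and microRNA sequences from RefSeq, both GRCm38, a different build than mm9, so no position of the files was used. The adjustment and standard error steps were run on simulated data with normal errors, which checks their arithmetic only. Whether the normal approximation suits the authors' p-values, and so how accurate the intervals are, was not tested. The members and the 14 related lists were chosen with earlier results of these data known. Named genes are the members, up to 4 others per list with the smallest adjusted p among those called, and paralogs with a mean of at least 10. Scripts ran under Python 3.11.15 with scipy 1.17.1, numpy 2.4.6, pandas 2.3.3 and matplotlib 3.10.9.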

Additional observations from a re-analysis of the deposited data

How the results depend on the processing

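With a minimum change of 1.5-fold beside the adjusted p, 3 members were called lower (Tdgf1, L1td1 and Utf1) in place of 6, and 0 higher in place of 1. Pou5f1 at 0.671 and Lin28a at 1.49-fold lie just short of that size. The other calls lost were Gdf3 at 0.700 and Zfp281 at 0.802 of their levels in uninduced cells. At an adjusted p of 0.01, or with p adjusted over genes with a mean of at least 10 or of at least 50, the counts were 6 lower and 1 higher, as in the report. The median log2 change of the members was between -0.421 and -0.415 under pseudocounts of 0.5 and 5, equal totals and a median ratio of 1. None of 40 recomputed member changes shifted by more than 0.01. Little shift was possible, because the lowest member level was 1452 normalized reads and the scalings multiplied induced means by 0.997 and 1.001. These settings therefore could not test the member changes. Of 56 list counts recomputed at 0.01 or a minimum mean of 10, 55 stayed within 1.5 times, and the exception was Cdkn1a, lost from the Trim71 targets at 0.01. No paired analysis was possible because the columns of the library table carry no replicate number or sample label, and fits without single libraries, with limma or with count models were not run for the same reason.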

Other observations

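Gene order around the members follows the RefSeq gene table of GRCm38.p6, with the 2 nearest tested genes on each side of each member. Of these 40 neighbours 16 were called lower, 4 higher and 20 did not pass, beside 16.4% lower and 19.1% higher among all tested genes. Gdf3 sits in a cluster with other stem cell genes. Its neighbours Dppa3, a maternal factor also expressed in stem cells, and Nanog fell to 0.374 (adjusted p = 5.2e-11) and 0.562 of their levels in uninduced cells (adjusted p = 2.2e-06), and Apobec1 to 0.725 (adjusted p = 0.019), in the authors' deposited table. Zfp281 lies next to Nr5a2 and Sox2 next to Atp11b, which fell to 0.542 of its level in uninduced cells (adjusted p = 1.8e-27) in the authors' deposited table. Next to Lin28a, Dhdds and Hmgn2 rose 1.29-fold (adjusted p = 0.011) and 1.58-fold (adjusted p = 2.6e-15), while Crybg2 on the other side fell to 0.292 of its level in uninduced cells (adjusted p = 4.5e-18), in the authors' deposited table. The neighbours named here were chosen after their values were seen.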
